A study of Mus musculus with 23 samples.

Results

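The genes described here are 9 genes of the MHC class I loading machinery, B2m, Tap1, Tap2, Tapbp, Psmb8, Psmb9, Psmb10, Erap1 and Nlrc5, together with Cd1d1, which encodes the mouse lipid-presenting molecule CD1d. They were chosen by symbol, and all 10 were among the 12157 genes tested. Gene expression was measured in dendritic cells sorted from mouse spleen, with 1 population on each of 23 Affymetrix Mouse Gene 1.0 ST arrays. The groups were Bcl6 conditional knockout (cKO) type 1 conventional dendritic cells (cDC1, 4 arrays) and WT cDC1 (3 arrays), cKO type 2 conventional dendritic cells (cDC2, 5 arrays) and WT cDC2 (3 arrays), and cKO plasmacytoid dendritic cells (pDC, 5 arrays) and WT pDC (3 arrays). The strain, age and Cre driver, and whether the WT mice carried floxed alleles or Cre, are not given in the sources used here. Nothing in the labels says that the arrays of a group came from separate mice, so the p-values reflect the spread between these samples alone, which may be technical.

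MHC class I molecules display peptides from the cytosol to CD8 T cells. Proteasomes cut the proteins, the TAP1-TAP2 transporter carries the peptides into the endoplasmic reticulum, ERAP1 trims them there, and tapasin (Tapbp) holds the empty heavy chain with beta-2-microglobulin (B2m) beside the transporter until a peptide binds. CD1d also pairs with beta-2-microglobulin but is loaded with lipids, largely in endosomes and lysosomes, and is seen by natural killer T cells. The cDC1 are known for cross-presenting material from other cells on class I, cDC2 for presenting to CD4 T cells, and pDC for secreting type I interferon. BCL6 is a transcriptional repressor.

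Array medians ran from 29.3 to 41.2 on the linear intensity scale. They were cut by value into 3 sets, called processing sets here, though no label names a batch. Set A (8 arrays) had medians of 29.3 to 31, set B (6 arrays) 31.6 to 34.3 and set C (9 arrays) 38.9 to 41.2. Sets A and B therefore lie close together, and each set holds all 6 groups. In WT mice replicate 1 was in set A, replicate 2 in set B and replicate 3 in set C for every cell type. The 3 WT arrays numbered 1 had Xist at 10.9 to 11.89 (log2 intensity), and the other 20 arrays, all cKO arrays included, read 5.07 or less. Results that turn on these arrays are given with and without them. The sorted cDC1 and pDC matched their markers. On each array the mean level of 6 cDC1 markers lay between 9.54 and 10.44 in cDC1 and at 6.91 or less elsewhere. That of 5 pDC markers lay between 10.94 and 12.07 in pDC and at 6.69 or less elsewhere. The mean of 6 cDC2 markers lay between 8.05 and 8.77 in cDC2 and at 7.35 or less elsewhere, but its members were mixed. Clec4a4 was lower in cKO than in WT cDC2 (-2.72 ± 0.28, limma adjusted p = 1.96e-06), while Itgam and Cd209a were called higher. Only 3 of the 6 were called higher in WT cDC2 than in WT pDC, and none lower. The probe set for Bcl6 did not check the deletion, since its position relative to the deleted part is not given in the sources used here. It read 8.39 ± 0.29 in cKO cDC1 and 7.42 ± 0.61 in WT cDC1, and no genotype difference in Bcl6 passed the test in any cell type (adjusted p = 0.598 for cDC1, 0.756 for cDC2 and 1 for pDC). Levels are given as log2 intensities with the SD over arrays, differences as log2 differences with limma's SE, and a gene was called when its Benjamini-Hochberg adjusted p over all 12157 genes was below 0.05.

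Loss of Bcl6 went with a higher level of Cd1d1 in both conventional types and with no called change in any of the 9 class I loading genes. Among the 10 genes, 1 was called higher in cKO cDC1 and 1 in cKO cDC2, Cd1d1 in both cases, and none was called lower. Over all genes, 0.814% were called higher in cKO cDC1 and 1.16% in cKO cDC2. In pDC none of the 10 was called in either direction (1 had an unadjusted p below 0.05), while 0.0329% of all genes were called higher. The plot of genotype differences shows Cd1d1 apart from the other genes in cDC1 and cDC2 but not in pDC.

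**Figure D1:**
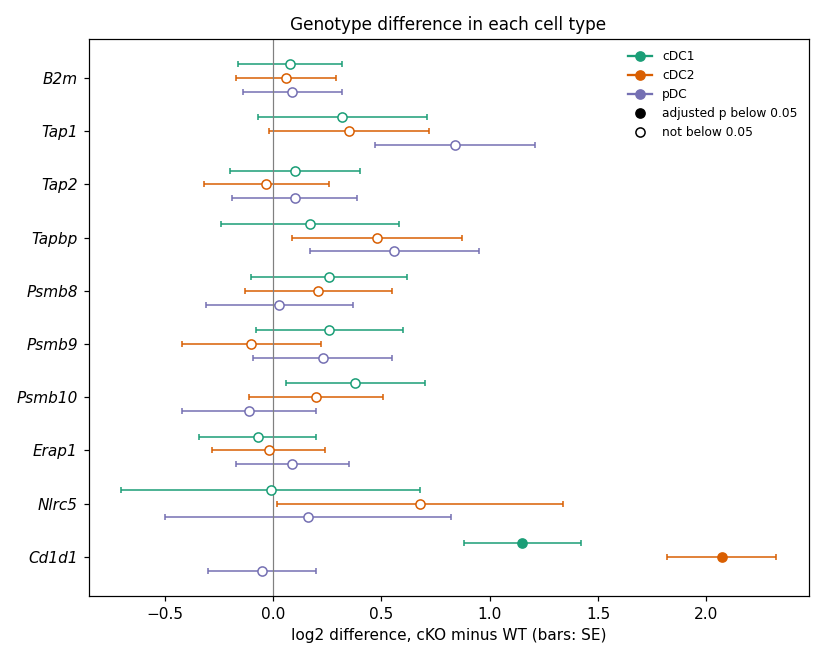
Log2 difference, cKO minus WT, of the 10 genes (rows) in cDC1, cDC2 and pDC (colours), with limma SE bars. Filled points have an adjusted p below 0.05; these are Cd1d1 in cDC1 (1.15) and in cDC2 (2.07).

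Cd1d1 in the cDC1 arrays read 8.72, 8.36, 9.25 and 8.75 in cKO, against 7.74, 7.23 and 7.90 in WT. Every cKO cDC1 array lay above every WT cDC1 array. The means were 8.77 ± 0.37 in cKO and 7.62 ± 0.35 in WT, a difference of 1.15 ± 0.27 (SE), or 2.22-fold (95% interval 0.59 to 1.71 on the log2 scale, limma adjusted p = 0.0344). Within the processing sets the difference was 0.98 in A, 1.13 in B and 1.10 in C. The call did not survive every choice of arrays: without the 3 high-Xist arrays the difference was 1.21 with an adjusted p of 0.0512. Leaving out WT cDC1 array 1 or 2, or cKO cDC1 array 1, 3 or 4, also ended the call, with differences of 0.95 to 1.21 and the highest adjusted p, 0.399, without WT cDC1 array 2.

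Cd1d1 in the cDC2 arrays read 7.59, 7.86, 7.66, 8.26 and 8.24 in cKO, against 5.29, 6.41 and 5.86 in WT. The groups did not overlap, and the lowest cKO array was more than 1 log2 unit above the highest WT array. The means of 7.92 ± 0.31 in cKO and 5.86 ± 0.56 in WT differed by 2.07 ± 0.25, or 4.19-fold (95% interval 1.53 to 2.60, limma adjusted p = 1.97e-05). Medians of the WT cDC2 arrays were 4.91 to 5.28 on the log2 scale. Cd1d1 was therefore also low in WT cDC2, and the fold may be understated. The difference was 2.43 in set A, 1.26 in set B and 2.39 in set C. Without the 3 high-Xist arrays it was 1.79 (adjusted p = 0.000693).

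In pDC Cd1d1 read 5.24, 5.39, 5.49, 5.60 and 5.55 in cKO and 5.09, 5.79 and 5.65 in WT. The groups overlapped, and all 8 values lay close to the arrays' medians (4.91 to 5.36 on the 8 pDC arrays), where a change may be hard to see. The difference was -0.05 ± 0.25 (95% interval -0.59 to 0.48, adjusted p = 1). The genotype effect on Cd1d1 differed between cDC2 and pDC by 2.12 ± 0.36 (limma interaction contrast, adjusted p = 0.00402), where the pDC effect is that of a gene near the array medians. Of the 10 genes, 1 was called in this contrast, against 0.485% of all genes in either direction. Between cDC1 and pDC the effects differed by 1.2 ± 0.37 (adjusted p = 0.506), with none of the 10 genes and 0.329% of all genes called. Between cDC1 and cDC2 they differed by -0.92 ± 0.37 (adjusted p = 0.991), again with none of the 10 and 0.280% of all genes called. The larger effect in cDC2 than in cDC1 was therefore not shown by the test.

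Markers of other cells moved with genotype beside Cd1d1. In cDC2, the summed intensity of 5 tested T and NK cell markers (of 8 listed) was 551 to 921 in cKO and 381 to 530 in WT. None of the 5 was called between genotypes, and none lay below the array median in cKO cDC2. Cd3g was nonetheless 2.06 ± 0.57 higher in cKO cDC2 (limma adjusted p = 0.0792), a difference of the size of that of Cd1d1. Ncr1 (1.65 ± 0.49), Cd3d (1.32 ± 0.41) and Cd3e (0.67 ± 0.22) were also higher, and Cd5 was lower (-0.52 ± 0.29). The summed macrophage and monocyte markers (6 tested of 8) were 490 to 989 in cKO cDC2 and 448 to 866 in WT cDC2, and the neutrophil and erythroid markers (5 tested of 8) 169 to 1690 in cKO and 134 to 2140 in WT. The summed cDC1 markers (6 tested of 6) were 903 to 1660 in cKO cDC2 and 641 to 1290 in WT cDC2. Those of pDC (5 tested of 6) were 650 to 1050 in cKO cDC2 and 440 to 622 in WT cDC2. No gene of these 2 lists was called between genotypes in cDC2. Differences were above 0 for 5 of 6 cDC1 markers and 2 of 5 pDC markers. The part of these cells in the Cd1d1 result was not tested. B cell markers (5 tested of 6) summed to 108 to 205 in cKO cDC2 and 149 to 254 in WT cDC2, with 4 of the 5 below the array median in cKO and 3 of 5 in WT. In cDC1, the summed cDC2 markers were 1020 to 1200 in cKO and 216 to 285 in WT, with 3 of 6 called higher, and B cell markers 151 to 279 in cKO and 213 to 496 in WT. Macrophage and monocyte markers summed to 309 to 458 in cKO cDC1 and 253 to 377 in WT cDC1, with 1 of 6 called higher, Adgre1 (1.27 ± 0.30, adjusted p = 0.0412), and neutrophil and erythroid markers to 141 to 2590 in cKO and 153 to 974 in WT, with all 5 differences above 0 and none called. The part of these markers in the cDC1 result was likewise not tested. In these bulk samples fewer cells of a type and less RNA per cell cannot be told apart.

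By mean level Cd1d1 ran, high to low, cKO cDC1, cKO cDC2, WT cDC1, WT cDC2, WT pDC and cKO pDC. Among neighbours in this order the difference exceeded the larger SD between cKO cDC1 and cKO cDC2 (0.85) and between WT cDC1 and WT cDC2 (1.77), and not between the other neighbours. Over the 23 arrays, after each array's median was subtracted, the gene whose pattern was most like that of Cd1d1 was Lsr (Pearson r = 0.96). Arrays of a group and of a processing set are not independent, so this r only describes the pattern.

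**Figure D2:**
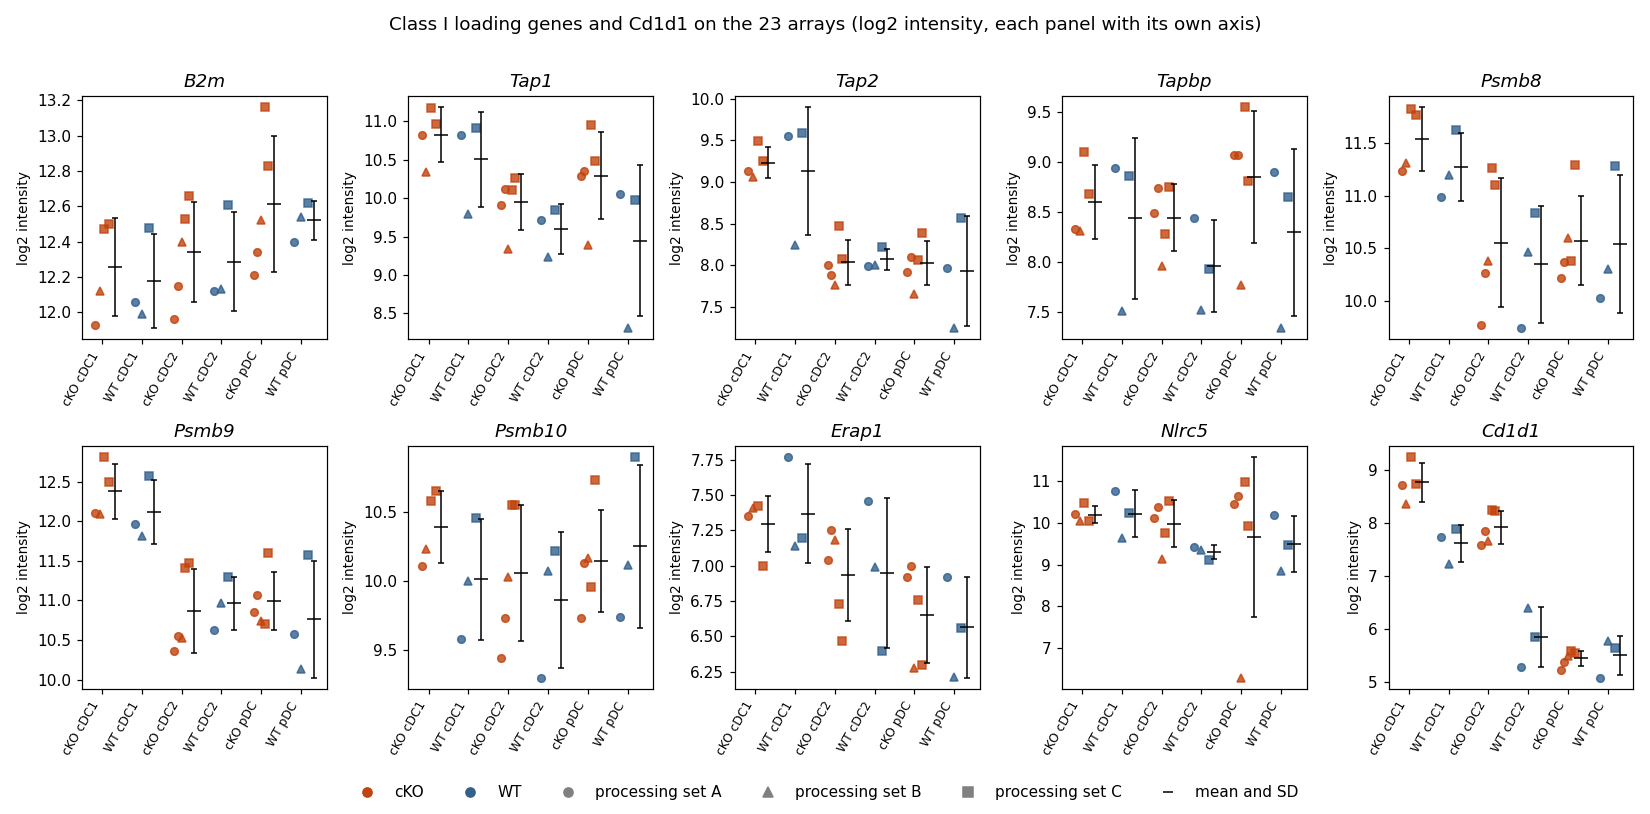
Log2 intensity (vertical axis, a separate scale in each panel) of the 10 genes on the 23 arrays, by group, with cKO in orange left of WT in blue. Marker shapes give the processing set and black bars the mean and SD; Cd1d1 lies near 5.5 in both pDC groups and between 7.59 and 9.25 in the cKO conventional groups.

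The peptide transporter showed no called genotype difference. Tap1 averaged 10.83 ± 0.36 in cKO cDC1 and 10.51 ± 0.62 in WT cDC1, 9.95 ± 0.36 in cKO cDC2 and 9.60 ± 0.32 in WT cDC2. Its largest difference was in pDC, where it read 10.29, 10.36, 9.39, 10.95 and 10.49 in cKO and 10.05, 8.31 and 9.98 in WT. All cKO pDC arrays but array 3 lay above the 3 WT arrays. The difference of 0.84 ± 0.37 had an unadjusted p of 0.0332 and an adjusted p of 1. Without WT pDC array 2, the lowest array, it was 0.28 (adjusted p = 1), with cKO pDC array 3 kept. Both are set B arrays, and the set B array read lowest for Tap1 in every group. Within the sets the pDC difference was 0.27 in set A, 1.07 in set B and 0.74 in set C. Tap2 differed between genotypes by 0.10 ± 0.30 in cDC1, -0.03 ± 0.29 in cDC2 and 0.10 ± 0.29 in pDC.

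Psmb8, Psmb9 and Psmb10 encode the 3 immunoproteasome subunits that replace constitutive catalytic subunits of the proteasome. Their genotype differences ran from 0.26 to 0.38 in cDC1, from -0.10 to 0.21 in cDC2 and from -0.11 to 0.23 in pDC, none called, with 0.255 the lowest unadjusted p (Psmb10 in cDC1). The constitutive counterparts Psmb5, Psmb6 and Psmb7 differed by 0.24 to 0.30 in cDC1, 0.05 to 0.09 in cDC2 and -0.23 to 0.03 in pDC, none called.

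B2m, the light chain shared by class I and CD1d molecules, differed by 0.08 ± 0.24 in cDC1, 0.06 ± 0.23 in cDC2 and 0.09 ± 0.23 in pDC. Cd1d1 therefore moved in cDC1 and cDC2, with no called change in its partner chain. For B2m the 95% intervals were -0.42 to 0.58 in cDC1, -0.42 to 0.53 in cDC2 and -0.39 to 0.57 in pDC. Tapbp differed by 0.17 ± 0.41 in cDC1, 0.48 ± 0.39 in cDC2 and 0.56 ± 0.39 in pDC. Erap1, the trimming peptidase, differed by -0.07 ± 0.27 in cDC1, -0.02 ± 0.26 in cDC2 and 0.09 ± 0.26 in pDC. Over the 10 genes the median difference was 0.22 in cDC1, 0.21 in cDC2 and 0.10 in pDC, beside 0.06, 0.07 and 0.05 over all genes tested. Outside Cd1d1, the intervals do not exclude modest changes: for Tapbp they reached 1.03 in cDC1, 1.31 in cDC2 and 1.38 in pDC.

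Nlrc5 encodes the class I transactivator, which drives many of these genes in other cells. It is measured by 19 probe sets, all of which passed the filter, and the brightest stood for the gene. That probe set read 10.45, 10.66, 6.28, 10.98 and 9.93 in cKO pDC and 10.19, 8.85 and 9.46 in WT pDC. The value of 6.28 on cKO pDC array 3 stands far below the rest, and 16 of the 19 Nlrc5 probe sets were lowest on that array among the cKO pDC arrays. With this array the pDC difference was 0.16 ± 0.66 (adjusted p = 1), and without it 1.0 (adjusted p = 0.787). The array is the set B array of its group, and within the sets the difference was 0.36 in A, -2.57 in B and 0.99 in C. Nlrc5 was 10.21 ± 0.21 in cKO cDC1 and 10.22 ± 0.56 in WT cDC1, and 9.98 ± 0.56 in cKO cDC2 and 9.30 ± 0.16 in WT cDC2, neither called. Over its 19 probe sets, the cKO minus WT difference was above 0 for 17 in cDC1, 19 in cDC2 and 19 in pDC, with medians of 0.21 in cDC1, 0.30 in cDC2 and 0.61 for the pDC. Probe sets of 1 gene share their RNA and are not replicates, and 4 of the 19 had an unadjusted p below 0.05 in pDC, 0 in cDC1 and 0 in cDC2.

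**Figure D3:**
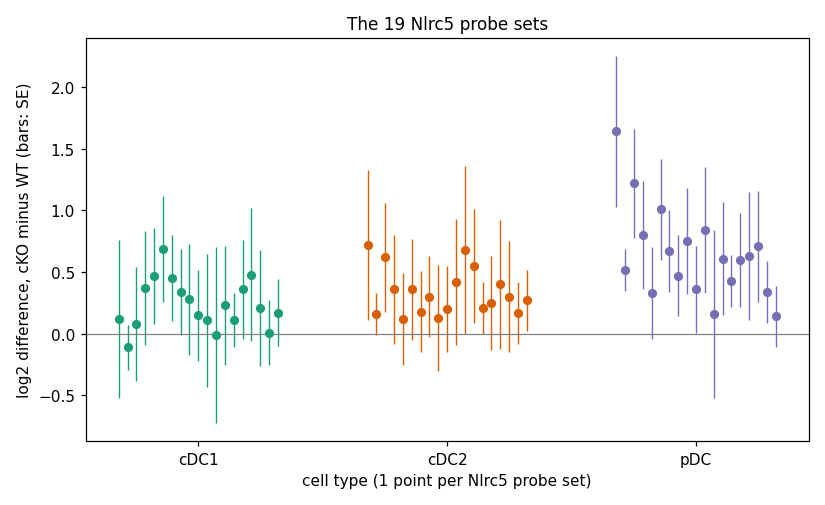
Log2 difference, cKO minus WT, of each of the 19 Nlrc5 probe sets in cDC1, cDC2 and pDC, with limma SE bars. Differences run from -0.11 to 0.69 in cDC1, from 0.12 to 0.72 in cDC2 and from 0.14 to 1.64 in pDC.

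Other genes of the pathway gave no called genotype difference outside the interferon-stimulated genes. Of 14 tested class I loading partners (chaperones, oxidoreductases and peptidases), 11 class I heavy chains and relatives, 14 constitutive core proteasome subunits, 12 genes of CD1d lipid loading and 21 class I regulators, none was called between genotypes in any cell type. Over all genes only 0.814% were called higher in cKO cDC1, 1.16% in cKO cDC2 and 0.0329% in cKO pDC. Shares called lower are not given here. At such shares lists of this size may hold no called gene, so these counts are not results particular to the lists. The classical heavy chain genes H2-K1 and H2-D1 were not analysed here. Interferon-stimulated genes, a group that shares inducers with the class I genes, were called higher for 6 of 23 tested in cKO cDC1 (0.814% of all genes). These included Ifi27l2a (2.83 ± 0.33, adjusted p = 1.06e-05), the guanylate-binding protein gene Gbp3 (2.14 ± 0.37, adjusted p = 0.00165), the RNA sensor gene Ddx58 (1.53 ± 0.35, adjusted p = 0.032) and the nucleic acid sensor gene Zbp1 (1.39 ± 0.29, adjusted p = 0.014). In cDC2 1 of 23 was called higher (1.16% of all genes), Gbp3 (1.98 ± 0.35, adjusted p = 0.00185). In pDC it was also 1 of 23 (0.0329% of all genes), Oasl2 (1.32 ± 0.23, adjusted p = 0.0266). The median difference of the 23 was 1.10 in cDC1, 0.61 in cDC2 and 0.84 in pDC, beside all-gene medians of 0.06, 0.07 and 0.05.

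Between cell types, the genes that stood out were Tap2, Psmb9 and Cd1d1, all highest in cDC1. In cKO mice, 3 of the 10 genes were called higher in cDC1 than in cDC2 and none lower, against 4.0% of all genes called higher and 4.95% lower. Against pDC, 4 of 10 were called higher in cKO cDC1 and none lower, with 12.5% of all genes higher and 7.90% lower. Between cKO cDC2 and cKO pDC, 1 of 10 was called higher and none lower, with 13.5% of all genes higher and 7.27% lower. In WT mice 1 of 10 was called higher in cDC1 than in cDC2 and none lower (3.02% and 3.04% of all genes), 3 of 10 higher in cDC1 than in pDC and none lower (8.37% and 5.14%), and none between cDC2 and pDC (7.93% and 4.80%). WT cDC2 and WT pDC also had no gene of the 10 with an unadjusted p below 0.05.

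**Figure D4:**
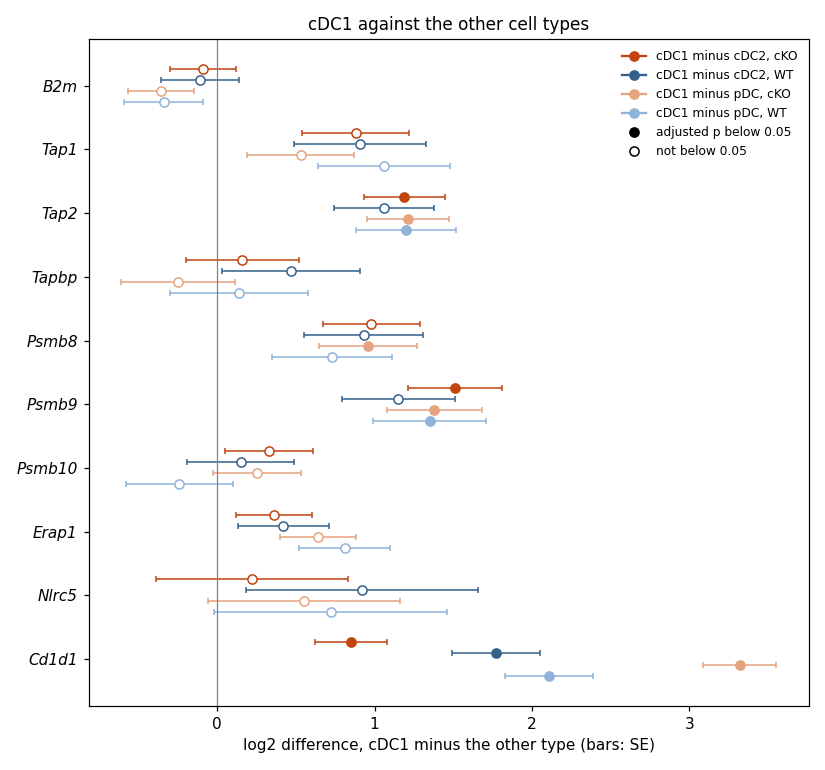
Log2 difference of the 10 genes (rows) between cDC1 and cDC2 and between cDC1 and pDC in cKO and WT mice, with limma SE bars. Filled points have an adjusted p below 0.05: Tap2 and Psmb9 in 3 of the 4 comparisons, Psmb8 in 1 and Cd1d1 in all 4.

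Tap2 read 9.13, 9.06, 9.49 and 9.25 in cKO cDC1, 8.0, 7.88, 7.76, 8.47 and 8.08 in cKO cDC2, and 7.92, 8.10, 7.66, 8.06 and 8.39 in cKO pDC. All cKO cDC1 arrays lay above every cKO cDC2 and cKO pDC array. The difference between cKO cDC1 and cKO cDC2 was 1.19 ± 0.26 (2.29-fold, adjusted p = 0.00351), and that between cKO cDC1 and cKO pDC was 1.21 ± 0.26 (2.31-fold, adjusted p = 0.00152). In WT mice Tap2 read 9.55, 8.24 and 9.59 in cDC1, 7.99, 8.01 and 8.22 in cDC2, and 7.97, 7.25 and 8.57 in pDC. WT cDC1 exceeded WT cDC2 by 1.06 ± 0.32 (adjusted p = 0.052) and WT pDC by 1.2 ± 0.32 (adjusted p = 0.0115). WT cDC1 array 2, of set B, was the low array of its group, and the difference between WT cDC1 and WT cDC2 was 1.56 in set A, 0.24 in set B and 1.38 in set C.

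Psmb9 read 12.10, 12.09, 12.81 and 12.50 in cKO cDC1, 10.36, 10.55, 10.52, 11.41 and 11.47 in cKO cDC2, and 10.85, 11.07, 10.74, 10.70 and 11.60 in cKO pDC. Again no array of another cKO cell type reached the cKO cDC1 arrays. The difference was 1.51 ± 0.30 against cKO cDC2 (2.85-fold, adjusted p = 0.00108) and 1.38 ± 0.30 against cKO pDC (2.60-fold, adjusted p = 0.00124). In WT mice Psmb9 averaged 12.11 ± 0.40 in cDC1, 10.96 ± 0.33 in cDC2 and 10.76 ± 0.73 in pDC. Its WT difference was 1.15 ± 0.36 between cDC1 and cDC2 (adjusted p = 0.0617) and 1.35 ± 0.36 between cDC1 and pDC (adjusted p = 0.0115).

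Cd1d1 was 0.85 ± 0.23 higher in cKO cDC1 than in cKO cDC2 (adjusted p = 0.0203), 3.32 ± 0.23 higher in cKO cDC1 than in cKO pDC (adjusted p = 1.39e-10) and 2.47 ± 0.22 higher in cKO cDC2 than in cKO pDC (adjusted p = 8.57e-09). No fold is given against pDC, where Cd1d1 lay close to the array medians and the differences may be understated. In WT mice it was 1.77 ± 0.28 higher in cDC1 than in cDC2 (3.41-fold, adjusted p = 0.000164) and 2.11 ± 0.28 higher in cDC1 than in pDC (adjusted p = 6.86e-06). WT cDC2 and WT pDC differed by 0.34 ± 0.28 (adjusted p = 0.579). Cd1d1 was thus low in WT cDC2 as well, so the fold against WT cDC2 may be understated. Psmb8 was 0.96 ± 0.31 higher in cKO cDC1 than in cKO pDC (adjusted p = 0.0312) and 0.98 ± 0.31 higher than in cKO cDC2 (adjusted p = 0.054). The Psmb8 difference between cKO cDC1 and cKO cDC2 was called in 12 of 33 alternatives, among them quantile normalization (0.85, adjusted p = 0.00647) and the fit without the 3 high-Xist arrays (0.98, adjusted p = 0.0447).

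For Psmb8 the call against cKO pDC was lost without cKO cDC1 array 3 or 4, or cKO pDC array 1, 2 or 4 (adjusted p up to 0.101). For Cd1d1 the call between cKO cDC1 and cKO cDC2 was lost without cKO cDC1 array 3 or cKO cDC2 array 1 or 3 (adjusted p up to 0.111). For Tap2 and Psmb9 the calls between WT cDC1 and WT pDC were lost without the 3 high-Xist arrays (Tap2 1.01, adjusted p = 0.159; Psmb9 1.34, adjusted p = 0.0844). Both were also lost without WT cDC1 array 3 (Tap2 0.97, Psmb9 1.12) or WT pDC array 2 (Tap2 0.86, Psmb9 1.04), and the Tap2 call also without WT cDC1 array 1 (0.99).

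The WT arrays deviated together by replicate number, and with that number as a block more class I genes passed between WT cell types. The block called 6 of 10 genes higher in WT cDC1 than in WT cDC2: Tap1 (0.91, adjusted p = 0.0134), Tap2 (1.06, adjusted p = 0.0463), Psmb8 (0.93, adjusted p = 0.0109), Psmb9 (1.15, adjusted p = 0.0048), Nlrc5 (0.92, adjusted p = 0.0392) and Cd1d1 (1.77, adjusted p = 0.0137). Over all genes it called 8.74% higher, beside 3.02% without the block. Against WT pDC it called 7 of 10 genes higher in WT cDC1, the same 6 and Erap1 (0.81, adjusted p = 0.0141). Over all genes 14.2% were called higher in that comparison, beside 8.37% without the block. Without it Nlrc5 differed by 0.92 ± 0.74 between WT cDC1 and WT cDC2 (limma adjusted p = 0.791). Between WT cDC1 and WT pDC it differed by 0.72 ± 0.74 (adjusted p = 0.695). Over its 19 probe sets the medians were 0.43 and 0.33, with 1 unadjusted p below 0.05 in each comparison. Psmb8 was also not called without the block (adjusted p = 0.223 against WT cDC2 and 0.269 against WT pDC).

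For B2m, Tap1, Tapbp, Psmb10, Erap1 and Nlrc5 no cell type comparison was called over the 23 arrays without a block. Some alternatives called each of them but Tapbp, and for Nlrc5 only the replicate block did. B2m averaged between 12.18 and 12.61 in the 6 groups, with no difference between neighbouring groups above the larger SD. Its difference between cKO conventional cells and pDC depended on scaling: cKO cDC1 were 0.36 ± 0.21 below cKO pDC (adjusted p = 0.276), and after quantile normalization 0.71 below (adjusted p = 2e-04), while the alternatives ranged from -0.71 to 0. In WT, the cDC1 minus pDC difference was -0.34 ± 0.25 (adjusted p = 0.506), and quantile normalization gave -0.55 (adjusted p = 0.0156). Tapbp group means lay between 7.96 and 8.85, Psmb10 means between 9.86 and 10.39 and Erap1 means between 6.56 and 7.37. Erap1 was 0.64 ± 0.24 higher in cKO cDC1 than in cKO pDC (adjusted p = 0.0574, called in 5 of 33 alternatives) and 0.81 ± 0.29 higher in WT cDC1 than in WT pDC (adjusted p = 0.0676, called in 4 of 33). Psmb10 was called in 1 alternative, array weights, between cKO cDC1 and cKO pDC (adjusted p = 0.0289). For Tap1 the cDC1 minus cDC2 difference was 0.88 ± 0.34 in cKO (adjusted p = 0.137) and 0.91 ± 0.42 in WT (adjusted p = 0.309). Its cDC1 minus pDC difference was 0.53 ± 0.34 in cKO (adjusted p = 0.331) and 1.06 ± 0.42 in WT (2.08-fold, adjusted p = 0.105).

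Tap2 and Psmb9 followed each other across the 23 arrays (Pearson r = 0.90 after array medians were subtracted), as did Psmb8 and Psmb9 (0.89). Tap1 and Tap2, whose products form 1 transporter, had r = 0.70. B2m and Cd1d1, whose products pair, had r = -0.58. The genes most like the others were Fzd1 for Tap2 (0.93), Txndc15 for Psmb9 (0.94), Rnh1 for Psmb8 (0.95), Borcs7 for Psmb10 (0.94), Mtmr14 for Tap1 (0.91), Cdc42se1 for Tapbp (0.91), Hspa14 for Erap1 (0.91), Cxcr5 for B2m (0.89) and Kansl3 for Nlrc5 (0.82). These values describe arrays that share cell type and processing set.

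Psmb9, Tap1, Psmb8 and Tap2 are consecutive protein-coding genes on mouse chromosome 17 (RefSeq, GRCm38.p6), and the start sites of Psmb9 and Tap1 face away from each other across a short interval. RefSeq promoter sequences matched 7 of the 10 genes, from 250 bases before to 50 after the start. Tap2, Nlrc5 and Cd1d1 had no matching promoter sequence, so no motif was searched for in these genes. They were searched on both strands for an interferon response element (GAAANNGAAA), a palindromic core shared by STAT and BCL6 motifs (TTCNNNGAA), a Y box (ATTGG) and a cAMP-response-like core of the X2 box (TGACG). The interferon element was found in B2m and Erap1 (3.44% of all 32851 promoters hold it), and TTCNNNGAA in Psmb8 (8.3%). The Y box was found in B2m, Tap1, Tapbp and Psmb9 (37.4%), and TGACG in B2m, Tap1 and Psmb9 (20.8%). The Tap1 and Psmb9 windows overlap, and their Y box and TGACG matches are the same bases, so each is counted for both genes. The sequences printed here lie upstream of Psmb9, Tap1 and Psmb8, and of B2m, the chain that class I and CD1d share. By mean level Psmb9, Tap1 and Psmb8 were highest in cDC1 within each genotype. Tap1 was not called between cell types without a block. Capitals mark the motif matches on either strand, and sequences run 5′ to 3′ on the plus strand. B2m upstream is chr2:122147537-122147686, the Psmb9 to Tap1 interval is chr17:34187331-34187555 and Psmb8 upstream is chr17:34198045-34198194 (RefSeq, GRCm38.p6).
B2m upstream: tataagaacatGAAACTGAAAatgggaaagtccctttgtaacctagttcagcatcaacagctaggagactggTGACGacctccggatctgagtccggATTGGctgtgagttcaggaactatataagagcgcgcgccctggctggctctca
Psmb9 to Tap1 interval: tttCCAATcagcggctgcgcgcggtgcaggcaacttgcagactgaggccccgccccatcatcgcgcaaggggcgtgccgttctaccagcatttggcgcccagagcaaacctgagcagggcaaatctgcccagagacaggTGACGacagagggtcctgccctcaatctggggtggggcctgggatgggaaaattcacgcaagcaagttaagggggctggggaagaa
Psmb8 upstream: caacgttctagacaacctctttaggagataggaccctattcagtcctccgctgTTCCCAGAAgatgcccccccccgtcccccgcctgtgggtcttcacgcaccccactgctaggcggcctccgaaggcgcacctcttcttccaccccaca

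Pdia3, an oxidoreductase of the loading complex, was higher in cDC1 than in cDC2 (0.74 ± 0.21 in cKO, adjusted p = 0.0279; 1.11 ± 0.26 in WT, adjusted p = 0.00737). Among the 14 loading partners 3 were called higher in cKO cDC1 than in cKO cDC2 and 1 in WT, none lower, beside 4.0% of all genes in cKO and 3.02% in WT. Wdfy4, needed for cross-presentation by mouse cDC1, was 2.46 ± 0.23 higher in cKO cDC1 than in cKO pDC (adjusted p = 1.53e-08) and 3.02 ± 0.28 higher in WT cDC1 than in WT pDC (adjusted p = 2.34e-08). It was also higher in cDC2 than in pDC (1.10 ± 0.22 in cKO, adjusted p = 0.000454, and 2.12 ± 0.28 in WT, adjusted p = 6.72e-06). Between cDC1 and cDC2 it differed by 1.36 ± 0.23 in cKO (adjusted p = 0.000214) and 0.90 ± 0.28 in WT (adjusted p = 0.0582). Against pDC 3 of 14 were called higher in cKO cDC1 and 1 in WT cDC1 (12.5% of all genes in cKO and 8.37% in WT). Of 14 constitutive core subunits, none was called between cDC1 and cDC2, while 6 were higher in cKO cDC1 than in cKO pDC and 1 in WT, beside the same all-gene shares. Psmb7, the counterpart of Psmb10, was among both (1.38 ± 0.26 in cKO, adjusted p = 0.000346; 1.03 ± 0.32 in WT, adjusted p = 0.0313).

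Of 11 class I heavy chains and relatives, 3 were higher and 3 lower in cKO cDC1 than in cKO pDC, where 12.5% of all genes were higher and 7.90% lower. Hfe, a class I-like regulator of iron uptake, was 2.38 ± 0.26 higher (adjusted p = 1.75e-07), and H2-T24, a non-classical class I gene, was lower (-1.5 ± 0.25, adjusted p = 6.75e-05). Both were called in the same direction in cKO cDC2 against cKO pDC (Hfe 1.53 ± 0.24, H2-T24 -1.28 ± 0.23). Of 12 genes of CD1d lipid loading, 2 were called higher in cDC1 than in pDC and 2 were called lower, in each genotype. These counts stand beside 12.5% and 7.90% of all genes in cKO, and 8.37% and 5.14% in WT. In cKO mice Lipa, the lysosomal acid lipase gene, was 2.06 ± 0.32 higher in cDC1 (adjusted p = 2.66e-05) and Gm2a, which encodes a lipid transfer protein of lysosomes, 1.39 ± 0.24 higher (adjusted p = 0.000133). Ctsl, a lysosomal protease gene, was lower in cKO cDC1 than in cKO pDC (-4.79 ± 0.27, adjusted p = 3.28e-12), as was Npc1, which exports cholesterol from lysosomes (-2.54 ± 0.23, adjusted p = 1.39e-08). In cKO cDC2 against cKO pDC, Gm2a (1.01 ± 0.23), Ctsl (-3.99 ± 0.26) and Npc1 (-1.54 ± 0.22) were called in the same directions, and Lipa was not called. Of 21 regulators, 4 were higher and 5 lower in cKO cDC1 than in cKO pDC, beside 12.5% and 7.90% of all genes. Among them Ifngr1, an interferon gamma receptor gene, was higher (3.10 ± 0.24, adjusted p = 5.85e-10) and Ifnar2, a type I interferon receptor gene, lower (-2.01 ± 0.22, adjusted p = 2.83e-07).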

How the data were processed

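Per the submitters' processing notes the arrays were processed with Affymetrix Expression Console by RMA; versions are not given in the sources used here. The deposited intensity values, 1 per probe set and array, run from 3.785 to 13980.744 on a linear scale, and log2 was taken of these deposited values. Of 28853 probe sets, 21789 had 1 gene in the platform annotation, 1621 several and the rest none listed, and 21698 of the 1-gene probe sets matched RefSeq (GRCm38.p6). Probe sets above the array median on at least 3 arrays were kept, and the brightest on average represented its gene, which left 12157 genes. The processing sets were drawn from the array medians once the values had been seen.

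All 23 arrays entered 1 limma 3.58.1 fit of 6 group means in R 4.3.3 (17 residual degrees of freedom, two-sided tests, Benjamini-Hochberg adjustment over all genes of a contrast), tested on simulated data. Precision is limited by how many arrays each group has. The members, gene lists and rule for names were chosen with earlier results of these data known: all 10 members, the gene with the highest r to each, Psmb5, Psmb6, Psmb7, Bcl6, and up to 4 called genes of each list per comparison by size of difference. Same-numbered arrays, for numbers 1 to 3, were checked for deviating together from the group means, with r above 0.1 for every checked pair. Arrays with higher numbers were not checked. This held for the 3 WT comparisons (r of 0.38 to 0.70), for cDC1 between genotypes (0.44 to 0.54) and for cKO cDC2 against cKO pDC (0.57 to 0.62). In these comparisons both arrays of every pair were in the same processing set. Same-numbered pairs from different sets had r of -0.3 to -0.03. Pairing of samples and sharing a set therefore cannot be told apart, and the numbers are not shown to pair samples. No 2 arrays held identical values. Alternatives changed the normalization, filter, probe set rule, weights, processing set, arrays and replicate block.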

Additional observations from a re-analysis of the deposited data

Results flagged for a closer look

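In groups of 4 or 5 arrays, 30 combinations of gene and group were searched for an array far from the rest, by Dixon's criterion, which chance meets in about 1 of 20. The search found 2. Erap1 in cKO cDC1 array 4 read 7.0, with the nearest array at 7.35. Nlrc5 in cKO pDC array 3 read 6.28, with the nearest array at 9.93. The genotype effect on Cd1d1 differed between cDC2 and pDC by 2.12 ± 0.36 (limma interaction contrast, adjusted p = 0.00402), with all 5 cKO cDC2 arrays above the 3 WT cDC2 arrays and overlapping groups in pDC, where Cd1d1 lay close to the array medians and a change may be hard to see.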

How the results depend on the processing

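Each comparison was rerun under 33 alternatives, and no called difference changed sign. The call of Cd1d1 in cDC2 held in all 33 (differences of 1.79 to 2.34), as did its contrast between cDC2 and pDC (1.84 to 2.40). The count of genes called between genotypes in cDC1 was 0 without the 3 high-Xist arrays, 0 with only the arrays compared and 0 to 1 when 1 array was left out. For WT cDC1 against WT cDC2 the count of 1 became 4 after quantile normalization, 4 after subtracting array medians, 3 with array weights (whose fit stopped before converging), 5 with the processing set as a term, 6 with the replicate block and 1 to 3 when 1 array was left out. For WT cDC1 against WT pDC the count of 3 became 6 with the set term, 1 without the high-Xist arrays, 1 with only the arrays compared, 7 with the replicate block, 4 after quantile normalization (B2m lower) and 1 to 4 when 1 array was left out. In cKO, cDC1 against cDC2 gave 5 instead of 3 with array weights, 5 with the set term, 4 in 5 other alternatives and 2 to 4 when 1 array was left out. Against pDC, cKO cDC1 gave 7 instead of 4 with the set term (6 higher, B2m lower), 6 with array weights (Tap1 and Psmb10 added), 5 after quantile normalization or subtracting array medians (B2m lower), 5 without the high-Xist arrays (Erap1 added) and 3 to 5 when 1 array was left out. Also in cKO, cDC2 against pDC gave 2 instead of 1 after quantile normalization and 2 with the set term, B2m being lower. Apart from the replicate block, the all-gene shares under these alternatives are not given here, so the counts are not results particular to these genes. With the block the all-gene share called higher also rose in both WT comparisons of cDC1, as given above. The cause of these moves was not tested. In WT the replicate numbers coincide with the sets. Beyond the calls given in the report, the replicate block changed only that of Psmb8 in cKO cDC1 against cKO cDC2 (adjusted p = 0.0121). In that comparison same-numbered arrays did not all share a processing set. Cd1d1 in pDC lies close to the array medians, so changes there may be hard to see.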
